A study of Rattus norvegicus with 10 samples.

Results

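Myoblasts cultured from the soleus of rats kept in hindlimb suspension (HS) for 7 days were compared with myoblasts cultured from the soleus of control rats. The samples were chosen by their labels, and they are 4 of the 10 libraries of the series: Control 1 and Control 2, and HS7 1 and HS7 2. In HS the hindlimbs are kept off the floor, so that the soleus, a slow postural muscle, carries no load. The study's methods give male Wistar rats aged 3 months, with vivarium cage animals as the control, and the other 6 libraries come from 1, 3 and 14 days of HS (HS1, HS3 and HS14). In all groups the soleus muscles of both hindlimbs were digested, the cells were pre-plated 72 h after digestion so that fast-adhering cells such as fibro-adipogenic progenitors were left behind, and RNA was taken after a further 24 h in a growth medium rich in serum, without a switch to differentiation medium. The cells are therefore cultures grown from the muscle and not muscle tissue, and HS7 denotes the history of the muscle they came from. Separate animals or cultures are not stated for the libraries of a group in the sources used here, so p-values measure only the spread between these libraries.

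Satellite cells, the stem cells of skeletal muscle, lie beneath the basal lamina of the fiber and become proliferating myoblasts once activated. Myogenic regulatory factors such as myogenin then drive withdrawal from the cell cycle, fusion into myotubes through the membrane proteins myomaker and myomixer, and assembly of sarcomeres. Notch signalling between neighbouring cells is known for holding satellite cells in quiescence and self-renewal. BMP signalling, which is blocked by secreted antagonists, is known for maintaining myoblast proliferation, and TGF-beta ligands are known for restraining differentiation.

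The total count lay between 25142964 and 26233681 in the 4 libraries, and a level of 3 counts, taken as the smallest detectable, corresponded to 0.114 to 0.119 CPM, which are counts scaled by the normalized library size and then by a common factor. Between 69.4% and 71.2% of the counts from 1 to 20 were even numbers, and a fit on halved counts was therefore among the alternatives. Symbols were available only for 770 genes that the study itself had called at some time point, of which 753 were tested, and every list given here is made of such genes. The counts of list members that rose or fell are therefore a description and not independent evidence of direction. Levels are from bulk cultures, in which fewer cells of a type and less RNA per cell cannot be told apart.

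Of 13164 genes tested with edgeR's quasi-likelihood test, 2189 were higher and 2137 lower in HS7 at a Benjamini-Hochberg adjusted p under 0.01, hereafter "passed". These are 16.6% and 16.2% of the genes tested. Differentially expressed genes (DEGs), for which the log2 fold change also exceeded 1.5 in size, numbered 257 upregulated and 215 downregulated, or 1.95% and 1.63%. Among the 753 tested genes with a symbol, from which all lists were drawn, the shares were higher, with 30% passing upward and 39.7% downward, and with 26.4% upregulated and 25% downregulated DEGs. The median log2 fold change of all genes was 0.00. A further 128 genes were above Control by more than 1.5 on the log2 scale without passing, compared with 71 genes below Control by as much. In all 128 of them both HS7 libraries lay above both Control libraries, which was so for 36.8% of all genes tested. Since these genes were chosen by their fold change in the same 4 libraries, this is a description and not separate support.

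Among upregulated DEGs whose mean log2 CPM reached 3, the 6 largest changes were in genes outside the contractile apparatus. Contractile genes with larger changes, such as Myh7 (3.08) and Actc1 (2.78), did not pass and are therefore not in this order, and with DESeq2 most muscle genes passed, as given with the muscle lists. Mttp, which loads lipid onto lipoproteins, stood at 2.22 and 3.12 CPM in the Control libraries and 21.2 and 11.9 CPM in HS7 1 and HS7 2, a change of 2.63 ± 0.35 on the log2 scale (standard error, edgeR adjusted p = 0.00142). It did not pass without Control 1 or without Control 2 (edgeR adjusted p = 0.0368 and 0.0221). Vdr, the vitamin D receptor, rose from 7.26 and 6.31 to 32.7 and 33.9 CPM, by 2.30 (edgeR adjusted p = 6.56e-10), with HS7 libraries that nearly coincided. Cpa1, a digestive carboxypeptidase of the pancreas, rose by 2.37, and Klk1, which belongs to the kallikreins, a family of similar genes among which reads may be split, by 2.39. Erbb3 and Wif1 complete the 6 largest and are described with the growth factors and the Wnt pathway.

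Among DEGs with a symbol whose mean log2 CPM reached 3, the largest falls were steeper than the largest rises. This order leaves out genes that did not pass. At this level 52 genes lay above Control by more than 1.5 without passing, and 1 lay below Control by as much. Among the 52 were Myo16, with a log2 fold change of 4.10 (edgeR adjusted p = 0.0533), Mybph of the thick filament list, with 3.15, Myh7 and Cdkn1c. The order is therefore not a comparison of all rises with all falls. Aqp1, a water channel of endothelia and epithelia, stood at 117 and 126 CPM in Control and at 9.57 and 10.7 CPM in HS7, a change of -3.58 ± 0.09 on the log2 scale (standard error, edgeR adjusted p = 9.61e-14). Ramp3, a partner of the adrenomedullin receptor, Krt7, a keratin of simple epithelia, and Ntm, a neural adhesion protein, followed with -3.42, -3.38 and -3.28. RGD1562420, a gene without an established name, went from 16.7 and 16.1 to 0.400 and 0.509 CPM. Only genes without overlap between the groups were taken into the orders of rises and falls, so the lack of overlap is by choice. Of all genes tested, 36.7% had both HS7 libraries below both Control libraries. Of the genes without a symbol, ENSRNOG00000033581 and ENSRNOG00000057161 fell most at this level, with log2 fold changes of -2.44 and -1.89.

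The promoters of a few genes on which the results turn are shown because the factors that act on them are known by their DNA motifs. Each is the 250 bases before the RefSeq start on build GRCr8, 5′ to 3′ along the gene. Myog (myogenin), Mymx (myomixer) and Acta1 (skeletal muscle alpha-actin) are shown with capitals at every E-box, CANNTG, the motif of myogenic regulatory factors. Hey2, a transcriptional repressor induced by Notch, is shown with capitals at GTGGGAA, the core motif of the Notch effector RBPJ, searched on both strands. The regions are chr13:48297226-48297475 (plus strand) for Myog, chr9:22894274-22894523 (plus strand) for Mymx, chr19:68784195-68784444 (minus strand) for Acta1 and chr1:28640850-28641099 (plus strand) for Hey2.
Myog: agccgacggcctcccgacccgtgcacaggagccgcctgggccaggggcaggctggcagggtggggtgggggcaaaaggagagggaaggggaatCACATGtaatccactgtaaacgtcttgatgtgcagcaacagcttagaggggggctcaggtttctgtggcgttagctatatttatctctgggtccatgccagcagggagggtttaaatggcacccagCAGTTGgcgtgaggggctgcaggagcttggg
Mymx: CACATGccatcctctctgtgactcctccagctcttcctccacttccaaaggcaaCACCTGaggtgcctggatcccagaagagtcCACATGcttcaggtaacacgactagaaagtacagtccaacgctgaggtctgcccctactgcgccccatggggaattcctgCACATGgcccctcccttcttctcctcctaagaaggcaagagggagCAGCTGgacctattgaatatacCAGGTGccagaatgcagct
Acta1: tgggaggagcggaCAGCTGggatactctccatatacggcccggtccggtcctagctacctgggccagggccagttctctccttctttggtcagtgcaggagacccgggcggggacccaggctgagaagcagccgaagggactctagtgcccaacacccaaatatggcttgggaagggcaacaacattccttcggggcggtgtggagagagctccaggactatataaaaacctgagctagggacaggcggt
Hey2: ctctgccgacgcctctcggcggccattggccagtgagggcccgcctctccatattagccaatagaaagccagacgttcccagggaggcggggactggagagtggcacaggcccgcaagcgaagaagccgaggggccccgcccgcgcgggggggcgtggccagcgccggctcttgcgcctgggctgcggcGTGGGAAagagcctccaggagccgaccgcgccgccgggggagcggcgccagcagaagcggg

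The Mymx window held 6 E-boxes, the Myog window 2 and the Acta1 window 1, and the Hey2 window held 1 match to the RBPJ motif, 61 bases before the start. Of the muscle genes described next, 67 of 88 matched a promoter by symbol, and the form CAGCTG of the E-box was in 21 of the 67 (31.3%), compared with 11.9% of all 27457 promoters. Any E-box was in 56 of them (83.6%), compared with 65.2% of all promoters. All 6 measured Notch genes matched, and GTGGGAA was in 2 of them, with a share of 5.22% over all promoters. A match says only that these letters stand in the window.

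Most genes of muscle differentiation were higher in both HS7 libraries than in Control, and higher in HS7 1 than in HS7 2. They were written as 7 lists: myogenic regulators, fusion, thick filament and M line, thin filament, Z disc and costamere, excitation-contraction coupling, and muscle energy metabolism, with 88 tested genes together. Of these, 86 did not overlap between the groups with HS7 the higher, 39 passed upward, 36 were upregulated DEGs, and 1 was a downregulated DEG. The shares of all genes tested that did so were 36.8% for the first of these counts, 16.6% for passing upward, 1.95% for upregulated and 1.63% for downregulated DEGs, and those of tested genes with a symbol were 45.2%, 30%, 26.4% and 25%. Their summed level was 2900 and 3002 CPM in the Control libraries, 17024 CPM in HS7 1 and 10139 CPM in HS7 2, or 0.296%, 0.305%, 1.67% and 0.997% of all counts. The mean of the sum was 4.60 times as high in HS7 as in Control, and HS7 1 was 1.68 times as high as HS7 2. The count that passed differed between settings. Without robust estimation of the dispersions 85 of the 88 passed upward, with DESeq2 85, and with all 10 libraries in one edgeR fit 84. It was 54 with the replicate number as a block, 80 without HS7 1, 85 without HS7 2, and 20 without either Control library. Members named next as passing that did not pass without a Control library are given in the closing section. Fold changes are therefore given for members that did not pass as well, and said to be so.

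**Figure D1:**
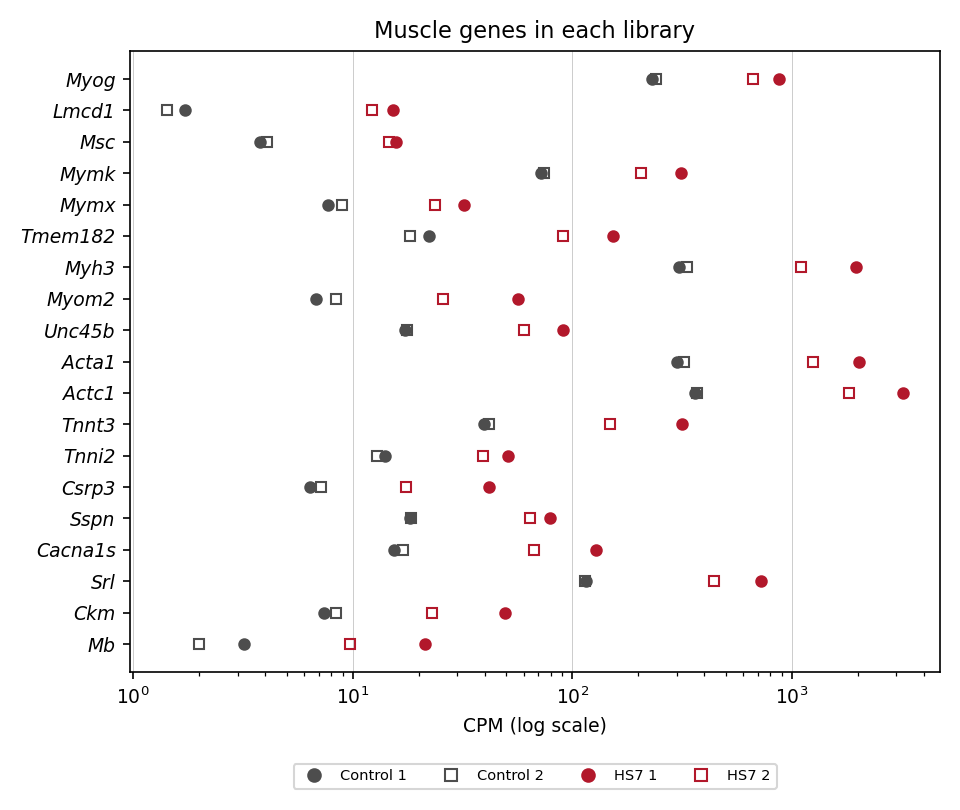
Levels in CPM, on a log axis, of 19 muscle genes in the 4 libraries, with grey marks for Control, red marks for HS7, filled circles for library 1 and open squares for library 2. Every gene shown is higher in both HS7 libraries than in both Control libraries, and in every gene shown HS7 1 is above HS7 2.

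Of the 9 myogenic regulators tested, 6 were upregulated DEGs, and their median log2 fold change was 1.96. Myog, which encodes the factor of terminal differentiation, stood at 230.2 and 241 CPM in Control and at 872 and 665 CPM in HS7 1 and HS7 2, that is 236 ± 7.54 CPM in Control and 769 ± 147 CPM (SD, n = 2 per group). On the log2 scale it rose by 1.71 ± 0.16 (standard error, edgeR adjusted p = 0.00234). The gap between the groups was larger than the gap between the HS7 libraries. Lmcd1, a LIM domain protein and transcriptional cofactor of muscle, had the largest change of the list, from 1.72 and 1.43 to 15.3 and 12.3 CPM (3.13, edgeR adjusted p = 9.76e-09). Mustn1, a small nuclear protein of the musculoskeletal system, rose by 1.94 and was further apart in the HS7 libraries, at 25.9 and 15.6 CPM. Msc (musculin), a repressor that competes with myogenic factors for E-boxes, rose from 3.79 and 4.05 to 15.8 and 14.7 CPM, nearly alike in both HS7 libraries. Hr, a nuclear corepressor, rose by 2.36, and Sox6, a repressor of slow fiber genes, by 2.04. Thus the list holds repressors as well as activators among the members that rose. Smyd1 and Tead4, a histone methyltransferase and a transcription factor of differentiating muscle, had log2 fold changes of 2.13 and 1.55 and did not pass, and Eya2 lay below Control (-0.94) without passing. Pax7 and Myf5, which mark satellite cells and early myoblasts, have no symbol in the study's list and were not analysed here.

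Of the 4 fusion genes 1 passed. Mymx rose from 7.69 and 8.93 CPM in Control to 32.1 and 23.7 CPM in HS7 (1.75, standard error 0.15, edgeR adjusted p = 1.09e-06). Mymk (myomaker), its partner in the fusion pore, stood at 71.8 and 74.4 CPM in Control and 312 and 206 CPM in HS7. The HS7 libraries of Mymk were 0.60 apart on the log2 scale, and its log2 fold change of 1.82 did not pass (edgeR adjusted p = 0.0389). Tmem182, a muscle membrane protein that restrains fusion, had 22.4 and 18.2 CPM in Control and 153 and 91.2 CPM in HS7 (2.59), and Jam2, an adhesion molecule, a log2 fold change of 2.39, and these also did not pass. With DESeq2, all 4 passed.

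Sarcomere genes formed the largest group, with 44 tested members in the thick filament, thin filament and Z disc lists. All 44 were higher in both HS7 libraries than in both Control libraries, and all 44 were higher in HS7 1 than in HS7 2. Their median log2 fold change was 2.08, the median distance from Control was 2.37 in HS7 1 and 1.601 in HS7 2, and 17 passed, all upward, of which 15 were DEGs.

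In the thick filament and M line list 6 of 17 passed. Unc45b, the chaperone that folds myosin heads, rose from 17.2 and 17.6 to 90.7 and 60.5 CPM (2.12, edgeR adjusted p = 0.00741). Myom1, which crosslinks myosin filaments in the M line, rose from 13.2 and 13.03 to 48.2 and 31.5 CPM (1.601, edgeR adjusted p = 0.00296). Trim63 (MuRF1), a ubiquitin ligase of the sarcomere known from muscle atrophy, rose from 2.38 and 2.703 to 13.9 and 7.48 CPM (2.07, edgeR adjusted p = 0.000299). The DEGs with fewer counts were Myh7b, a slow-type myosin heavy chain, and Mylk3, a myosin light chain kinase, with log2 fold changes of 1.63 and 2.27. Other myosin genes, named after their values were seen, also lay above Control in both HS7 libraries and did not pass. Myh3, the embryonic myosin heavy chain, stood at 305 and 332 CPM in Control and at 1965 and 1098 CPM in HS7 1 and HS7 2 (2.27, edgeR adjusted p = 0.0537). Mylpf, a fast regulatory light chain, and Myl4, the embryonic and atrial light chain, had log2 fold changes of 2.02 and 2.72, and Myh7, the slow myosin of the mature soleus, of 3.08, from 3.24 and 3.30 to 37.4 and 17.9 CPM. Slow, fast and embryonic forms thus all lay above Control.

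In the thin filament list 5 of 15 passed. Tnni2, fast troponin I, rose from 14.0 and 12.9 to 51.0 and 39.1 CPM (1.74, standard error 0.13, edgeR adjusted p = 1.91e-07). Tmod1, which caps the pointed ends of the filament, rose from 17.7 and 16.5 to 86.9 and 57.8 CPM (2.08, edgeR adjusted p = 0.00824). Fhod3, a formin of sarcomere assembly, rose by 2.06, and Nrap, a scaffold of nascent myofibrils, by 2.40. The actins themselves, named after their values were seen, did not pass. Actc1, the cardiac alpha-actin that developing skeletal muscle also uses, stood at 364 and 369.8 CPM in Control and 3212 and 1831 CPM in HS7 (2.78, edgeR adjusted p = 0.0358). Acta1 stood at 300.0 and 324 CPM in Control and 2029.8 and 1245 CPM in HS7 (2.39, edgeR adjusted p = 0.0358). Both actins passed with DESeq2, with all 10 libraries in one fit and without robust estimation.

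In the Z disc and costamere list 6 of 12 passed. Sspn (sarcospan), a member of the dystrophin complex, rose from 18.1 and 18.5 to 79.0 and 64.2 CPM (1.97, standard error 0.10, edgeR adjusted p = 2.51e-09). Dmd (dystrophin) rose from 11.4 and 10.1 to 38.9 and 24.8 CPM (1.57, edgeR adjusted p = 0.00444). Ankrd23, a titin-binding ankyrin repeat protein, rose by 1.76, Smpx, a small costamere protein, by 2.59, and Myoz2, a calcineurin-binding Z disc protein, by 2.21. Actn3, the alpha-actinin of fast fibers, passed with a smaller rise of 1.05. Csrp3, a LIM protein of the Z disc, had the largest gap between the HS7 libraries of all genes with a symbol whose mean log2 CPM reached 3, at 41.6 and 17.6 CPM against 6.36 and 7.21 CPM in Control, and did not pass (2.12, edgeR adjusted p = 0.122).

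Excitation-contraction coupling was represented by 20 genes, of which 10 passed, all upward. Fxyd1, a regulator of the sodium pump, rose from 3.71 and 4.09 to 13.2 and 15.6 CPM (1.89, edgeR adjusted p = 2.51e-07). It was the 1 gene of the list that was higher in HS7 2 than in HS7 1. Stac3, which couples the voltage sensor to the calcium release channel, rose from 3.55 and 3.08 to 18.4 and 9.95 CPM (2.10, edgeR adjusted p = 0.0011). Hrc, which binds calcium in the sarcoplasmic reticulum, rose by 1.63, Ryr3, a calcium release channel, by 2.02, and Cacng6, a calcium channel subunit, by 2.61. Cacna1s, the voltage sensor itself, stood at 15.5 and 17.005 CPM in Control and 128 and 67.1 CPM in HS7 and did not pass (2.59, edgeR adjusted p = 0.0569). Srl (sarcalumenin), which buffers calcium in the reticulum, had 115 and 114 CPM in Control and 724 and 444 CPM in HS7 and did not pass either (2.35). These last genes were named after their values were seen.

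Among 11 genes of muscle energy metabolism, 5 passed upward and 1 downward. Prkaa2 and Prkag3, subunits of the energy sensor AMP kinase, rose by 1.89 and 1.85, and Eef1a2, an elongation factor of mature muscle, by 1.96. Cox8b, a subunit of cytochrome oxidase, rose by 2.59 and Ucp3, a mitochondrial carrier, by 2.44. Ppp1r3c, which targets a phosphatase to glycogen, fell from 2.11 and 1.95 to 0.480 and 0.862 CPM (edgeR adjusted p = 0.00557), a call that was not made with DESeq2, without either Control library or without HS7 1. Ckm, the muscle creatine kinase, and Mb, myoglobin, were among the genes with the widest gap between the HS7 libraries. Ckm stood at 7.38 and 8.41 CPM in Control and 49.5 and 22.96 CPM in HS7, and Mb at 3.2002 and 1.99 CPM in Control and 21.3 and 9.68 CPM in HS7.

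The gap between HS7 1 and HS7 2 was wider over muscle genes than over other genes. Of 9263 genes whose mean log2 CPM reached 3, the median absolute difference between them was 0.0909 on the log2 scale, compared with 0.0693 between the Control libraries. In 188 of these genes (2.03%) the HS7 libraries were more than 0.5 apart, 148 of them higher in HS7 1 and 40 in HS7 2, whereas the Control libraries were that far apart in 29 genes. Of the 58 muscle list genes at this level, 57 were higher in HS7 1 and 49 were more than 0.5 apart. With 1 library on each side this difference has no replicate check, and no test was made.

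The 6 genes with the largest gap were Csrp3 (1.24 on the log2 scale), Myo16 (1.20), Mb (1.13), Myom2 (1.12), Ckm (1.10) and Tnnt3 (1.10), all higher in HS7 1. Of these, 5 are muscle list genes. Myom2, an M line protein, stood at 56.4 and 25.9 CPM in HS7 1 and HS7 2 and at 6.79 and 8.41 CPM in Control, and Tnnt3, fast troponin T, at 318 and 148 CPM in HS7 and 39.6 and 41.9 CPM in Control. Myo16, an unconventional myosin known from the nervous system, stood at 57.8 and 25.1 CPM in HS7 and at 2.85 and 1.99 CPM in Control. The log2 fold change of Myo16 was 4.10, and it did not pass (edgeR adjusted p = 0.0533).

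**Figure D2:**
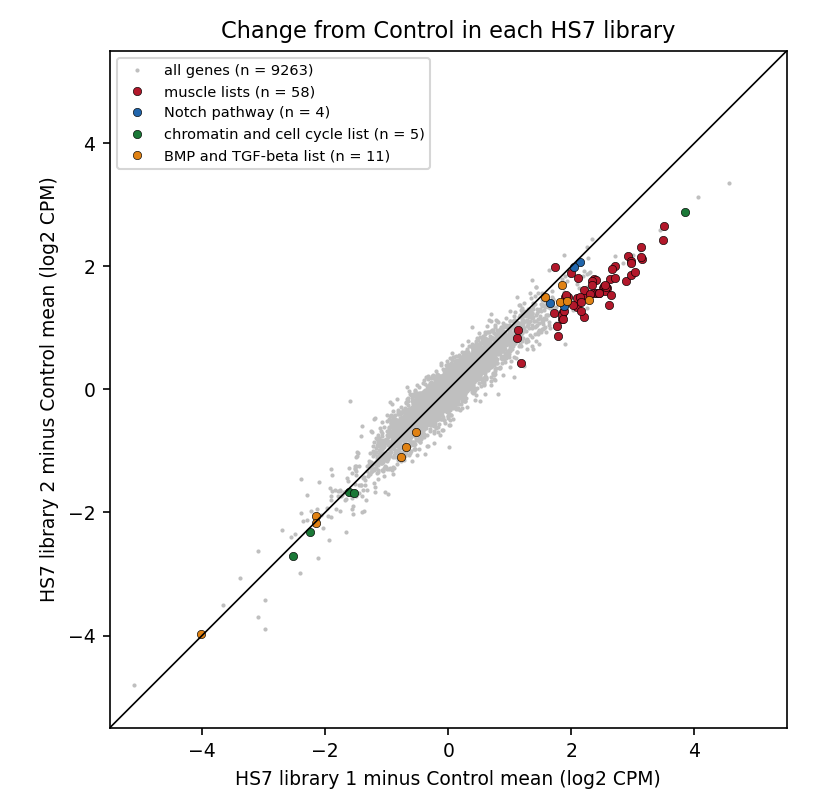
Each point is a gene whose mean log2 CPM reached 3, with its distance from the Control mean in HS7 1 on the horizontal axis and in HS7 2 on the vertical axis, both in log2 CPM; the line marks equal values. The muscle list genes lie at positive values on both axes and, but for 1 of 58, below the line, whereas the Notch genes and the chromatin genes that fell lie closer to it.

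The gap went mostly in 1 direction in genes above Control and in both directions in genes below it. Among the 73 upregulated DEGs at this level, 63 were higher in HS7 1, by a median of 0.32, and among the 72 downregulated DEGs, 36 were. The median size of the gap, whichever library was higher, was 0.331 in the upregulated and 0.184 in the downregulated DEGs, compared with 0.0909 in all genes at this level, and it was beyond 0.5 in 19 (26%) and 12 (16.7%) of them. The 52 genes at this level that were above Control by more than 1.5 without passing were all higher in HS7 1, by a median of 0.84, and since a wide gap enters the test, these genes were chosen in part by it. The 6 genes with a symbol that were higher in HS7 2 by more than 0.5, among them Cxcl3, a neutrophil chemokine, Hpse (heparanase) and Msln (mesothelin), all lay below Control in both HS7 libraries. Hpse, for example, had 30.8 and 28.3 CPM in Control and 7.85 and 11.95 CPM in HS7 1 and HS7 2. Of the genes higher in HS7 1 by more than 0.5, 12 passed downward, among them Ramp3 and Krt7, with Ramp3 at 2.52 and 1.29 CPM and Krt7 at 6.24 and 4.08 CPM in HS7 1 and HS7 2.

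**Figure D3:**
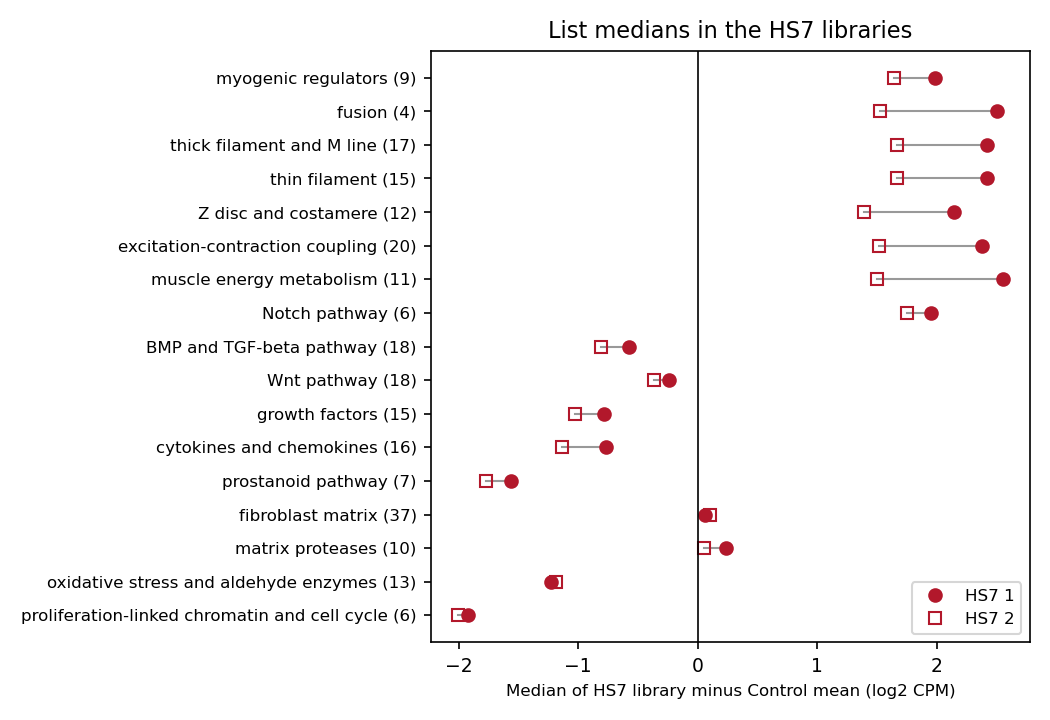
Median distance from the Control mean, in log2 CPM, over the tested members of each list (their number in brackets), as a filled circle for HS7 1 and an open square for HS7 2. For the 7 muscle lists the median of HS7 1 is between 1.99 and 2.55 and that of HS7 2 between 1.39 and 1.67, while the Notch list has 1.95 and 1.75.

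All measured Notch pathway genes rose. Of the 12 listed, 6 carried a symbol and were measured, while Notch2, Jag1, Hes1 and Hey1 were among those not analysed here. These 6 were all upregulated DEGs, which were 1.95% of all genes tested and 26.4% of those with a symbol, and all 6 passed in every alternative tried. Their summed level was 98.4 and 95.7 CPM in Control and 397 and 372 CPM in HS7. Of the receptors, Notch3 rose from 29.2 and 33.0 to 138 and 131 CPM (2.11, standard error 0.07, edgeR adjusted p = 7.97e-12) and Notch1 from 7.42 and 6.46 to 25.7 and 17.9 CPM (1.65, edgeR adjusted p = 1.06e-05). Notch1 was the member with the widest gap between the HS7 libraries, 0.52. The ligand Dll1 rose from 6.87 and 5.63 to 19.7 and 16.5 CPM (1.54, edgeR adjusted p = 6.78e-07). The targets Heyl and Hey2 encode repressors switched on by cleaved Notch. Heyl rose from 50.5 and 47.2 to 201 and 194 CPM (2.02, standard error 0.06, edgeR adjusted p = 2.69e-12). Hey2, whose promoter holds the RBPJ motif shown above, rose from 0.585 and 0.601 to 2.64 and 3.61 CPM (2.39, edgeR adjusted p = 8.65e-05) and was higher in HS7 2. Dtx4, a ubiquitin ligase that acts on the receptors, rose by 1.57. The median size of the gap between the HS7 libraries, whichever was higher, was 0.177 on the log2 scale for the Notch list and 0.758 for the 88 muscle genes.

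In the BMP and TGF-beta list 5 of 18 genes passed upward and 10 downward. For this list and those that follow, the shares of all genes tested were 16.6% upward and 16.2% downward. Of tested genes with a symbol, 30% passed upward and 39.7% downward. Grem1, a secreted antagonist of BMP ligands, fell from 258 and 253 CPM in Control to 15.7 and 16.2 CPM in HS7, a change of -3.999 ± 0.07 on the log2 scale (standard error, edgeR adjusted p = 9.55e-16). The ligand Bmp2 fell as well, from 22.2 and 22.9 to 5.04 and 5.33 CPM (-2.12, edgeR adjusted p = 4.27e-09). A ligand and an antagonist of the same ligand family thus fell together, with HS7 libraries that nearly coincided. Transcripts that are known to respond to BMP also fell. The log2 fold change was -3.01 for Msx2, a homeobox repressor, -1.63 for Tmem100, a membrane protein induced by BMP, and -0.81 for Smad6, the intracellular inhibitor of the pathway. Gdf10, a distant member of the ligand family, had 44 counts in the Control libraries together and 2 in the HS7 libraries.

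On the TGF-beta side the genes that passed beyond 1.5 rose. Tgfb2, a ligand, rose from 189 and 189 to 560.1 and 537 CPM (1.54, standard error 0.06, edgeR adjusted p = 1.19e-11). Itgb6, a subunit of the integrin that releases TGF-beta from its latent form, rose from 29.7 and 27.5 to 101 and 76.9 CPM (1.64). Fstl3, a secreted antagonist of activin and myostatin, rose from 20.4 and 17.2 to 67.9 and 60.5 CPM (1.78, edgeR adjusted p = 2.13e-09). Inha, the inhibin alpha subunit, rose by 2.33, and Adamtsl2, a matrix protein that binds latent TGF-beta complexes, by 1.71. Hjv, a BMP coreceptor of muscle and liver, had a log2 fold change of 1.93 and did not pass, and its HS7 libraries were 0.83 apart. The endothelial-type receptors Eng and Acvrl1 passed below the fold threshold (-0.92 and -0.61).

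Members of the Wnt list moved in both directions, 6 of 18 upward and 8 downward, and 11 were DEGs. Of the ligands, Wnt11, a noncanonical ligand, rose from 4.25 and 4.62 to 15.7 and 14.2 CPM (1.75, edgeR adjusted p = 2.69e-07), while Wnt10b and Wnt4 passed downward (-1.23 and -0.44). Of the receptors, Ror2, which binds Wnt5a, fell from 22.0 and 23.9 to 9.05 and 6.50 CPM (-1.56, edgeR adjusted p = 8.5e-07) and Fzd9 rose by 1.90. Lrp4, the agrin receptor of the neuromuscular junction and a binder of Wnt antagonists, rose from 90.0 and 91.0 to 313 and 244 CPM (1.62, edgeR adjusted p = 0.000257). Secreted antagonists were divided. Wif1 rose from 4.57 and 3.75 to 20.3 and 18.5 CPM (2.22, edgeR adjusted p = 1.24e-08), whereas Dkk3 fell from 34.3 and 31.9 to 8.49 and 7.88 CPM (-2.02, edgeR adjusted p = 1.64e-09). Dkk2 also fell (-2.28), and Dact1, an intracellular modulator, rose by 2.05. The count that fell was 4 without Control 1 and 3 without Control 2, in place of 8.

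**Figure D4:**
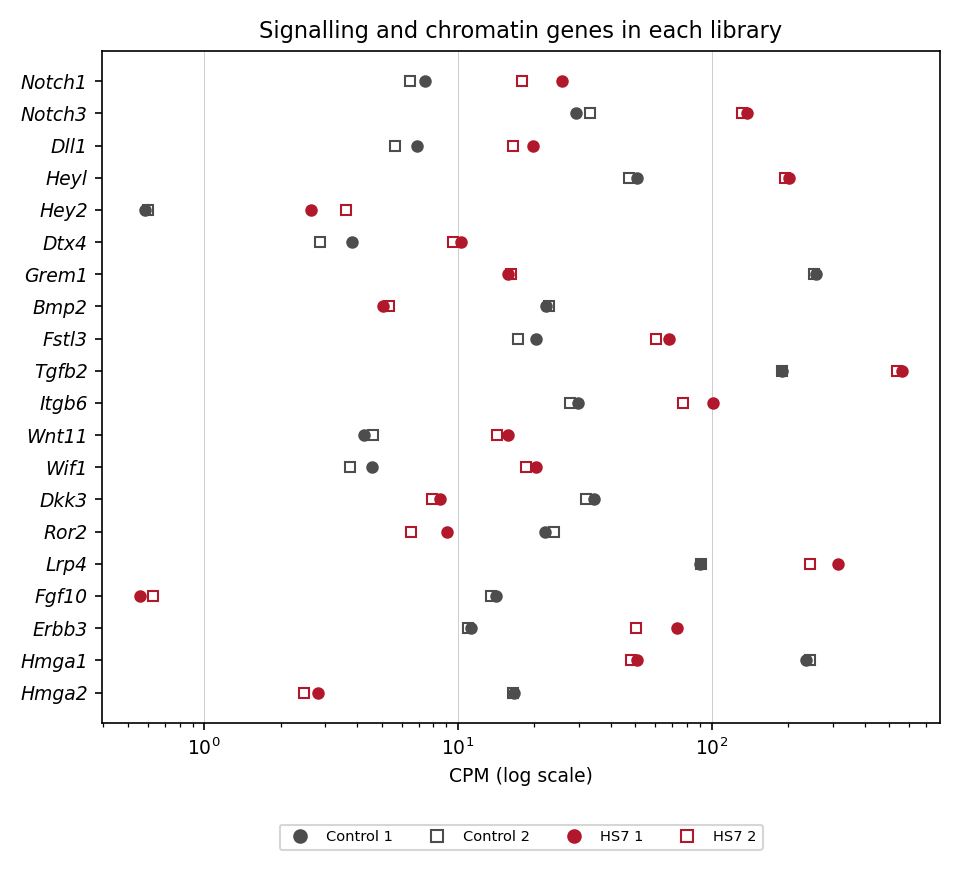
Levels in CPM, on a log axis, of 20 genes of the Notch, BMP and TGF-beta, Wnt, growth factor and chromatin lists in the 4 libraries, marked as for the muscle genes. For Notch3, Heyl, Grem1, Bmp2, Tgfb2 and Hmga1 the marks of the HS7 libraries nearly coincide and lie far from the Control marks.

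Of 15 growth factors and their receptors, 4 passed upward and 8 downward. Erbb3, a receptor for neuregulins, rose from 11.2 and 10.9 to 72.6 and 50.1 CPM (2.47, standard error 0.21, edgeR adjusted p = 0.000386), and Nrg1, a neuregulin that it binds, passed downward (-1.43), from 12.9 and 13.1 to 5.64 and 4.04 CPM. Ligands of the EGF receptor fell as well, Tgfa from 8.98 and 10.8 to 2.04 and 1.65 CPM (-2.42) and Ereg (epiregulin) from 4.06 and 3.00 to 0.400 and 0.392 CPM (-3.14). Fgf10, a ligand that mesenchymal cells make, had 14.1 and 13.5 CPM in Control and 0.560 and 0.627 CPM in HS7 (edgeR adjusted p = 6.43e-10). Pdgfb rose from 0.702 and 1.20 to 7.21 and 7.45 CPM (2.93, edgeR adjusted p = 5.93e-07), and Rln1, a relaxin, from 0.468 and 0.300 to 6.08 and 3.997 CPM. Adm, adrenomedullin, the ligand of the receptor that Ramp3 partners, fell (-1.76). Hgf, which is known to activate satellite cells, passed downward (-0.70), a call not made with DESeq2, and Igf1 did not pass (0.26). The number that rose was 2, in place of 4, without either Control library, and Erbb3 was among the calls lost (edgeR adjusted p = 0.0231 and 0.0217).

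Cytokine and prostanoid genes fell more often than they rose, which was also so for all tested genes with a symbol (39.7% downward and 30% upward). Of 16 cytokines, chemokines and their receptors, 4 passed upward and 8 downward. Il1rn, the antagonist of the interleukin-1 receptor, fell from 39.1 and 39.8 to 10.3 and 7.13 CPM (-2.18, edgeR adjusted p = 5.19e-08), and Il11ra1, the interleukin-11 receptor, from 34.4 and 35.4 to 12.05 and 10.6 CPM (-1.62, edgeR adjusted p = 9.21e-09). The neutrophil chemokines Cxcl6 and Cxcl3 fell (-2.74 and -1.87), as did Il1rl2, the interleukin-36 receptor (-1.96).

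Of 7 prostanoid genes, 5 passed, all downward. Ptgs1, the constitutive cyclooxygenase, fell from 463 and 464 CPM in Control to 106 and 120.5 CPM in HS7 (-2.03, standard error 0.06, edgeR adjusted p = 4.28e-12). Ptges, the synthase of prostaglandin E2, fell from 25.3 and 26.6 to 8.69 and 7.56 CPM and Ptgir, the prostacyclin receptor, from 28.8 and 36.6 to 10.97 and 8.39 CPM. Pla2g4a, the phospholipase that releases arachidonic acid, passed downward (-0.84). Enzymes of successive steps and 1 receptor therefore fell together, while the receptors Ptgfr (-0.55) and Ptger1 (0.30) did not pass. Ptgs2 carried no symbol and was not analysed here.

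Chromatin and cell cycle genes with a symbol were few, 6 of the 13 listed, and 5 of them were downregulated DEGs, which were 1.63% of all genes tested and 25% of those with a symbol. Hmga1 and Hmga2 encode architectural chromatin proteins of dividing and immature cells. Hmga1 fell from 235 and 244 CPM in Control to 50.6 and 48.0 CPM in HS7 (-2.28, standard error 0.06, edgeR adjusted p = 3.81e-13), and Hmga2 from 16.6 and 16.4 to 2.80 and 2.47 CPM (-2.64, edgeR adjusted p = 5.36e-09). Igf2bp3, an RNA-binding protein of fetal and proliferating cells, fell (-2.85), with 76 counts in the Control libraries and 10 in the HS7 libraries. The immediate response factors Fosl1 and Klf4 fell as well (-1.64 and -1.61). Cdkn1c (p57), an inhibitor of cyclin-dependent kinases that myoblasts use to leave the cell cycle, stood at 4.92 and 5.78 CPM in Control, 77.4 and 39.6 CPM in HS7 1 and HS7 2, and did not pass (log2 fold change 3.45, edgeR adjusted p = 0.0408). It passed with DESeq2, with all 10 libraries in one fit and without robust estimation. Cyclins and DNA replication genes carried no symbol and were not analysed here.

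Of 13 enzymes of oxidative stress and aldehyde metabolism, 8 passed downward and 2 upward. Akr1b8, an aldose reductase with close relatives among which reads may be split, fell from 608 and 618 to 130.4 and 121 CPM (-2.28, edgeR adjusted p = 2.28e-13). Cat (catalase) fell from 54.4 and 50.04 to 20.0 and 16.7 CPM (-1.51, edgeR adjusted p = 1.06e-08), and the metal-binding Mt2A, again from a family of similar genes, from 27.0 and 23.2 to 5.88 and 6.03 CPM (-2.07). Aldh1a1, which makes retinoic acid, rose from 0.585 and 0.601 to 8.09 and 3.45 CPM (3.27, edgeR adjusted p = 0.000133), with HS7 1 the higher. Without either Control library, 5 fell in place of 8 and 1 rose in place of 2, with Aldh1a1 no longer passing (edgeR adjusted p = 0.0196 and 0.022).

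Matrix genes divided nearly evenly, with 13 of 37 passing upward and 14 downward. Beyond a log2 fold change of 1.5, 9 were upregulated and 2 downregulated DEGs. Col5a3, a minor fibrillar collagen, rose from 200.1 and 207 to 643 and 511 CPM (1.502, edgeR adjusted p = 7.89e-05), and Postn (periostin), a matricellular protein induced by TGF-beta, from 140.2 and 140.1 to 601 and 460.1 CPM (1.92, edgeR adjusted p = 0.000833). Hmcn1 (hemicentin) rose from 10.7 and 12.7 to 44.9 and 39.7 CPM (1.85, edgeR adjusted p = 3.22e-09). The nonfibrillar collagens Col19a1, Col25a1 and Col26a1, at lower levels, rose by 2.07, 1.81 and 2.002, and Col25a1 is known from muscle innervation. Prelp, a small leucine-rich proteoglycan, fell from 171 and 173 to 49.4 and 54.6 CPM (-1.72, edgeR adjusted p = 2.33e-11), and Efemp1 (fibulin-3) from 3.82 and 4.20 to 0.480 and 0.392 CPM (-3.19). The summed level of the list, 14753 ± 573 CPM in Control and 15817 ± 462 CPM in HS7 (SD, n = 2 per group), was nearly the same, with a ratio of 1.07. A large part of it was Col1a1, with a mean of 6694 CPM in Control and 7710 CPM in HS7. Without Control 2, 8 of the list rose in place of 13. Of 10 matrix proteases and inhibitors, 3 passed in each direction. Prss23, a secreted serine protease, rose from 47.9 and 47.4 to 150.4 and 121 CPM (1.51, edgeR adjusted p = 1.06e-06), and Mmp3 (stromelysin-1) fell (-2.35).

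Markers of other cell types that the cultures could hold were examined with the same fit, and their part in the results above was not tested. The summed level of the fibro-adipogenic progenitor list, 10 genes, was 7280 and 7774 CPM in Control and 8208 and 8280 CPM in HS7. Most of this sum was Col1a1, with 6453 and 6935 CPM in Control and 7630 and 7790 CPM in HS7. The sum therefore mainly follows this 1 gene. Within it Thy1 and Pdgfra, surface proteins of these cells, fell from 466 and 480.3 to 167 and 149 CPM and from 145 and 147 to 61.6 and 62.2 CPM (log2 fold changes -1.58 and -1.24), and Osr1, a transcription factor of these cells, fell too (-3.04). Dcn (decorin) and Lum (lumican) passed with rises of 0.74 and 0.90, so that the members of the list went in both directions, with 3 passing upward and 4 downward.

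The summed level of 5 smooth muscle and pericyte markers with a test and Rgs5, which was too low to be tested, was 189.8 and 183 CPM in Control and 129 and 93.2 CPM in HS7. Myocd, the master regulator of smooth muscle, fell from 9.76 and 8.63 to 0.560 and 0.196 CPM (-4.59, edgeR adjusted p = 3.07e-08). The leukocyte list summed to 90.7 and 86.1 CPM in Control and 44.2 and 55.0 CPM in HS7, of which 3 of 7 genes passed, all downward. Fcgr2a, an Fc receptor of macrophages from a family of similar genes, had 54 counts in the Control libraries together and 0 in the HS7 libraries, at least 17.4-fold lower when 3 counts over the HS7 libraries are taken as the floor. The endothelial list summed to 10.4 and 13.6 CPM in Control and 17.9 and 13.9 CPM in HS7, with Cdh5 (VE-cadherin) at 0.234 and 0.150 CPM in Control and 3.202 and 1.96 CPM in HS7. Of 9 tested endothelial genes, 4 passed upward and 1 downward, and the number upward was 2 with DESeq2, 1 without Control 1, 2 without Control 2 and 2 without HS7 1. Of 3 adipocyte markers tested, Lpl (lipoprotein lipase), which muscle also expresses, rose from 55.3 and 52.4 to 262 and 200.01 CPM (2.10), and Pparg and Plin4 fell (-1.78 and -2.52), while Adipoq and Cfd were too low to be tested. Of the Schwann cell markers S100b passed downward (-1.23) and Ngfr did not pass (1.45). Other defining markers, among them Ptprc of leukocytes, Pecam1 of endothelium and Acta2 and Myh11 of smooth muscle, carry no symbol and were not analysed here.

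Across the series, the summed levels were set side by side for description, with all 10 libraries normalized together. The 88 muscle genes summed to 2941 and 3036 CPM in Control, 2272 and 2034 CPM in HS1, 6445 and 6697 CPM in HS3, 17214 and 10226 CPM in HS7 and 2303 and 2155 CPM in HS14. Both HS7 libraries lay above the 8 others, and the gap between them was wider than in any other group. The 6 Notch genes summed to 99.8 and 96.8 CPM in Control, 56.8 and 55.8 CPM in HS1, 93.9 and 101 CPM in HS3, 402 and 376 CPM in HS7 and 204 and 159 CPM in HS14. The muscle sum was thus above Control in both HS3 libraries, where the Notch sum was near that of Control, while in HS14 the Notch sum was above Control and the muscle sum was below it. The chromatin and cell cycle list summed to 359.9 and 369 CPM in Control, 371 and 369 CPM in HS1, 277 and 298 CPM in HS3, 165 and 122 CPM in HS7 and 201 and 219 CPM in HS14, lowest in HS7. Most of this sum in Control was Hmga1. It also holds Cdkn1c, an inhibitor of the cell cycle that lay above Control in HS7 and makes up most of the gap between the HS7 libraries. The sum is therefore not a measure of proliferation. No test was made on these sums, since an exact permutation test of 2 against 2 libraries cannot go below a two-sided p of 0.333.

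**Figure D5:**
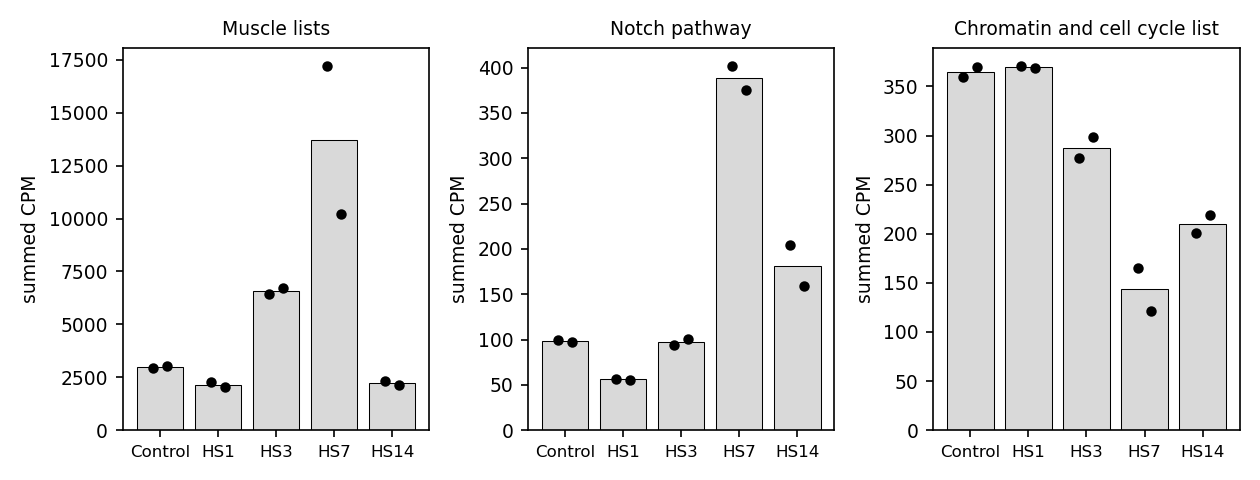
Summed CPM of the 88 muscle genes, the 6 Notch genes and the 6 chromatin and cell cycle genes in the 10 libraries, with bars for the mean of the 2 libraries of a group and points for the libraries. The muscle and Notch sums are highest and the chromatin and cell cycle sum lowest in HS7, and the muscle points of HS7 are 17214 and 10226 CPM. The chromatin and cell cycle sum is mostly Hmga1 in Control and includes Cdkn1c, which lay above Control in HS7.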

How the data were processed

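RNA from soleus-derived rat myoblast cultures was sequenced after polyA selection with a stranded kit (TruSeq Stranded mRNA), and the 4 Control and HS7 libraries were analysed here. The authors deposited the counts of 32622 Ensembl genes as raw, unnormalized read numbers. Per the labels, the reads were quality checked with FastQC 0.11.9, mapped with STAR 2.7 to Rnor_6.0 and counted with featureCounts 1.6.4, whereas the study's methods name mRatBN7.2, so no coordinates of the counted genes are given. How strand, read pairs and multiply mapped reads were counted is not given in the sources used here, and reads of overlapping antisense genes may not be separated.

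Genes were filtered with filterByExpr, scaled by TMM and compared with edgeR 4.0.16 (robust quasi-likelihood test, 2 residual degrees of freedom, two-sided) in R 4.3.3 with limma 3.58.1, with Benjamini-Hochberg adjustment over 13164 genes. The thresholds, an adjusted p of 0.01 and a log2 fold change of 1.5, are those of the study. Fold changes used a prior count of 0.125, and log2 CPM a prior count of 2. Distances of a single library from Control are differences of log2 CPM. On data simulated from these libraries with 200 changed genes, edgeR recovered 100 of 100 at a log2 fold change of 2 and 100 of 100 at 1.5. There were 3 false calls over 13088 genes. The simulation gave every gene the same small dispersion and changed only genes with many counts. It therefore does not show how well changes are recovered in genes with a wide gap between the HS7 libraries, such as the muscle genes. Depth differed little between the libraries, and intervals of counts cover counting error only. Promoters came from RefSeq (GRCr8), 1 per gene, matched by symbol. Symbols came from a supplementary table of the study. The lists, written by function, and the compared libraries were chosen with earlier results of these data known. Named were DEGs of each list (in lists with under 3 DEGs, the members with most counts), at most 6 in full. Named as well were the 6 largest rises and falls among DEGs without overlap between the groups. The 6 widest gaps between the HS7 libraries were also named, and Myog, Mymk and Mymx. Rises, falls and gaps were taken among genes with a symbol and with a mean log2 CPM that reached 3. A few genes that this rule takes are not reported here. Other genes were named after their values were seen. Of the genes given as not passing or as passing below the fold threshold, the rule took Mymk, the 6 widest gaps and members of lists with under 3 DEGs. The rest of those genes were named after their values were seen. DESeq2 1.42.0, other scaling, filters and fits, and leaving out each library were tried as alternatives.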

Additional observations from a re-analysis of the deposited data

How the results depend on the processing

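The counts of genes that passed were 2189 upward and 2137 downward, and 257 and 215 were DEGs. Leaving out each library gave 1033 to 2577 upward and 1022 to 2519 downward, and 148 to 383 upregulated and 146 to 242 downregulated DEGs. The lowest counts came without Control 2 (1033, 1022, 148 and 146), followed by Control 1 (1207, 1203, 159 and 163), and the highest without HS7 2, except for downregulated DEGs, which were highest without HS7 1 (242). A lone library was then assumed to vary like the other group. A log2 fold change beyond 1 gave 511 and 419 DEGs. With DESeq2, RLE size factors, no filter, all 10 libraries, halved counts or no robust estimation the 4 counts stayed within 1.5 times. Of the 88 muscle genes, 39 passed upward, compared with 85 with DESeq2, 84 with all 10 libraries, 85 without robust estimation and 20 to 85 with each library left out, and 1 passed downward, compared with 0 with DESeq2 and 0 to 1 with each library left out.

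How far a gene lay from its group mean in a Control library was nearly unrelated to the same distance in the HS7 library of that number. Pearson's r was 0.00598 across genes, which are not independent replicates. With 2 libraries per group this is a single comparison of gaps, so it cannot decide whether libraries with the same number shared a batch or handling. With the replicate block, which leaves 1 residual degree of freedom, 2515 genes passed upward and 2391 downward, 294 and 226 were DEGs, and 54 muscle genes passed upward.

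The 148 genes tested under these settings are genes named here, many of them chosen by their change in the same 4 libraries. None of them changed sign in any of the 11 alternatives, which this choice made likely, so it is a description and not separate support. Without Control 1, 25 of them no longer passed, and without Control 2, 28. Among these were, in both cases, Cox8b, Dmd, Eef1a2, Fhod3, Mustn1, Myom1, Myoz2, Prkaa2, Stac3, Tmod1, Trim63, Ucp3 and Unc45b of the muscle lists and Col1a1, Dcn, Gdf10, Hgf, Igf2bp3, Wnt4 and Wnt10b. On halved counts 7 no longer passed, and with RLE size factors 2. Mylk3, Lum, Col26a1 and Acvrl1 no longer passed without Control 2, and Ucp3 without HS7 1. The cause of these differences was not tested. With 2 libraries per group, the gap between the HS7 libraries limited what could be resolved for muscle genes, and changes larger than that gap did not always pass. Mymk changed by 1.82 on the log2 scale with a gap of 0.60, and Actc1 by 2.78 with a gap of 0.81, and neither passed in the main fit.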
